A study of Homo sapiens with 19 samples.

Results

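The genes described here were 10 genes of iron handling, chosen by symbol from the 34825 gene symbols in each of the expression tables. No measured value entered the rule, but earlier results of these data were known when the genes were chosen. They were transferrin (TF), the transferrin receptors TFRC and TFR2, the iron importer SLC11A2, the ferritin chains FTH1 and FTL, the iron exporter SLC40A1, the ferroxidase CP, the hormone hepcidin (HAMP) and its upstream gene HFE. All libraries were made from mRNA of HepG2, a human liver cancer cell line, and all cells, controls included, were transfected with an siRNA at 50 nM and harvested 72 h later. In the INO80 experiment the siRNA was the control NTG or one of a pair against INO80, the ATPase of the INO80 chromatin remodeling complex (siINO80#1 and siINO80#2), with 3 libraries a group. In the drug experiment cells also received DMSO or 1 μM EPZ-6438, an inhibitor of the histone methyltransferase EZH2, from 3 days before transfection, and the siRNA was NTG or siMCRS1, against another subunit of the INO80 complex. That gave 2 libraries of DMSO with NTG (DMSO_NTG), 3 of DMSO with siMCRS1 (DMSO_siMCRS1), 3 of EPZ-6438 with NTG (EPZ_NTG) and 2 of EPZ-6438 with siMCRS1 (EPZ_siMCRS1). The labels do not say that replicates were separate cultures, so p-values measure only the spread between these libraries, which may be technical, and HepG2 is a single transformed line. Libraries are named by the letters of the labels in the INO80 experiment and by the numbers or letters of the deposited table in the drug experiment.

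Hepatocytes take up iron bound to transferrin through the transferrin receptors, move it out of endosomes with SLC11A2, store it in ferritin, and release it through SLC40A1, the only known iron exporter of the cell. They also secrete transferrin, ceruloplasmin (the product of CP), which oxidizes released iron, and hepcidin, the liver hormone that binds the exporter and removes it from the cell surface. HFE, TFR2 and the co-receptor hemojuvelin are part of the sensing of transferrin-bound iron at the hepatocyte surface that raises HAMP through BMP and SMAD signaling, and IL-6 raises HAMP through STAT3. Iron regulatory proteins bind a stem-loop, the iron responsive element: in a 5′ UTR it blocks translation when iron is scarce, and in the 3′ UTR of TFRC it protects the mRNA.

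The elements are shown because those in a 5′ UTR act on translation and those in the 3′ UTR of TFRC act on the mRNA level. The matches do not by themselves sort the members into these kinds. One annotated transcript per gene (MANE Select, GENCODE annotation lifted to GRCh37) was searched for an unpaired C, 5 paired bases, a loop of CAGTG and 1 further base, and the 5 partner bases. The pattern was found in 253 of 18922 transcripts (1.34%) and in 5 of the 10 members, and a match is a description and not a tested site. In the lines below the capitals mark the unpaired C and the loop, and each window has 25 bases. The FTH1, FTL and SLC40A1 matches lie in the 5′ UTR at 11:61735048-61735072 (minus strand), 19:49468594-49468618 (plus strand) and 2:190445389-190445413 (minus strand).
FTH1: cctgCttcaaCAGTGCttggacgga
FTL: cttgCttcaaCAGTGTttggacgga
SLC40A1: acttCagctaCAGTGTtagctaagt
The 3′ UTR of TFRC (minus strand of chromosome 3) held 4 matches, and it was the 1 transcript of all those searched with that many. They start at 195777852, 195777448, 195777383 and 195777336, in the order of the transcript.
TFRC i: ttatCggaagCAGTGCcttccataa
TFRC ii: ttatCgggagCAGTGTcttccataa
TFRC iii: gtatCggagaCAGTGAtctccatat
TFRC iv: ttatCgggaaCAGTGTttcccataa
TF had 1 match, in the 3′ UTR at base 16200 of an annotated transcript of 20166 bases. The searched transcripts of SLC11A2, TFR2, CP, HAMP and HFE had none. Other transcripts of these genes and looser forms of the pattern were not searched. A gene without a match is therefore not shown to lack an element.

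Promoter windows from RefSeq (GRCh38.p14) were matched for 7 of the 10 members, and the 250 bases before the start of HAMP and HFE are printed because HAMP and HFE fell most, with siINO80#2 and with siMCRS1. Both strands were searched for ACGTG and GCGTG (cores of hypoxia response elements), TGACNNNGC (antioxidant response element), GGCGCC (core of BMP response elements), TTCNNNGAA (STAT site) and CACGTG (E-box, which contains ACGTG), and matches are in capitals. They occur in 21.4%, 36.5%, 13.3%, 19.2%, 7.66% and 7.26% of the 35116 windows of the same kind, each of which also takes in the 50 bases after the start. Among such windows of members, GGCGCC was found for HAMP, TF and TFRC and the STAT site for HAMP. ACGTG was found for HFE, TF, TFRC and FTL, and GCGTG for SLC11A2 and FTL. A part of these matches in any change was not tested. The HAMP window (19:35282278-35282527, plus strand) holds GGCGCC at −105 and a STAT match at −93 from the start.
HAMP promoter: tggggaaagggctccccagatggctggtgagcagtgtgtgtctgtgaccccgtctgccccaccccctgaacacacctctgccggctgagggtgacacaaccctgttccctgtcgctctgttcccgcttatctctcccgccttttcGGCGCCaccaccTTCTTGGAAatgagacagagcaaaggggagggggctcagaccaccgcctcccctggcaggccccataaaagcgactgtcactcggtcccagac
The HFE window (6:26087179-26087428, plus strand) holds ACGTG at −10.
HFE promoter: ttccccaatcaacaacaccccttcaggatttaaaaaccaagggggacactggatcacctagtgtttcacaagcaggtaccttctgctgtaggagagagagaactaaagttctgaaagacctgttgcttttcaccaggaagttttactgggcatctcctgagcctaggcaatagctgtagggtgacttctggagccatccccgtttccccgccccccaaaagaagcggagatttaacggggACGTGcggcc

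The siRNAs lowered their targets. INO80 mRNA was 1175 to 1338 normalized counts in NTG, 576 to 639 with siINO80#1 and 440 to 483 with siINO80#2, and MCRS1 was 1201 to 1577 in the NTG libraries of the drug experiment and 83.7 to 140 with siMCRS1. INO80 itself was lower with siMCRS1 in EPZ-6438 (log2 fold change −0.35, adjusted p = 0.0097), a call lost without EPZ_siMCRS1 B (−0.32, adjusted p = 0.081). In DMSO its change of −0.27 had an adjusted p of 0.039, which rose to between 0.051 and 0.24 without any of 7 of the 10 libraries, 4 of them of the groups compared, and to 0.061 with no filter on low values, 0.054 with no trend and 0.073 with only the groups compared in the fit. Values are gene counts divided by a size factor per library (normalized counts), and a library of the INO80 experiment held between 17093574 and 25369547 reads and one of the drug experiment between 26038505 and 47397233, so that 3 reads were worth 2.30 to 3.58 and 2.13 to 4.30 normalized counts. All 10 hepatocyte markers looked at were detected in every group. Of 10 markers of other cells, 5 averaged 10 normalized counts or more in the INO80 experiment and 7 in the drug experiment. LYZ gave nearly all of the sum of the 10. CD68 ran from 579 to 1597, PECAM1 from 138 to 326 and COL1A1 from 46.7 to 772, while HBB and CD3E stayed between 0 and 3.37. The siINO80#2 C library stood apart from its replicates (correlation 0.973 to 0.976), and the B libraries stood apart for TF and CP in the values that follow.

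Per kilobase of coding sequence, the level in control cells ran from ferritin to TFR2. In the NTG libraries of the INO80 experiment the mean per kilobase was 161363 normalized counts for FTL, 67398 for FTH1, 18632 for TF, 4995 for TFRC, 1215 for SLC40A1, 953 for SLC11A2, 905 for CP, 673 for HAMP, 204 for HFE and 113 for TFR2. The same 4 genes led in the DMSO_NTG libraries and HFE and TFR2 were again last, at 288 and 105. SLC40A1, SLC11A2, CP and HAMP lay close to each other and changed order between the experiments, so their order is not resolved by these data. The order is per kilobase of coding sequence and not of whole transcript. Annotated transcripts had 20166 bases for TF and 5012 for TFRC, and 5176 for HFE and 2886 for TFR2. The places of TF above TFRC and of HFE above TFR2 therefore depend on the length used.

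All 10 genes were tested, in a limma fit on log2(normalized count + 1) over every gene that averaged 10 or more normalized counts, with an adjusted p under 0.05 as the threshold. With siINO80#1, 1 gene rose and 3 fell, against 41.6% of all tested genes called, 20.7% higher and 20.8% lower. With siINO80#2, 1 rose and 6 fell, against 55.0% of all tested genes called, 26.6% higher and 28.4% lower. Between the INO80 siRNAs, 4 were lower with siINO80#2 and none higher, against 22.1% called, 9.48% higher and 12.6% lower. With siMCRS1 in DMSO, 3 rose and 2 fell, against 47.7% called, 23.1% higher and 24.6% lower, and with siMCRS1 in EPZ-6438, 3 rose and 3 fell, against 53.7% called, 26.8% higher and 26.9% lower. The shares of members called were thus near those of all genes with siINO80#1 and with siMCRS1 (4, 5 and 6 of 10), and nothing particular to iron genes is read from the counts. SLC40A1 rose and HFE and SLC11A2 fell with all 3 siRNAs (siMCRS1 in DMSO), where 12.2% of the 13534 genes tested in both tables rose and 12.4% fell with all of them. The INO80 siRNAs share their NTG libraries.

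**Figure D1:**
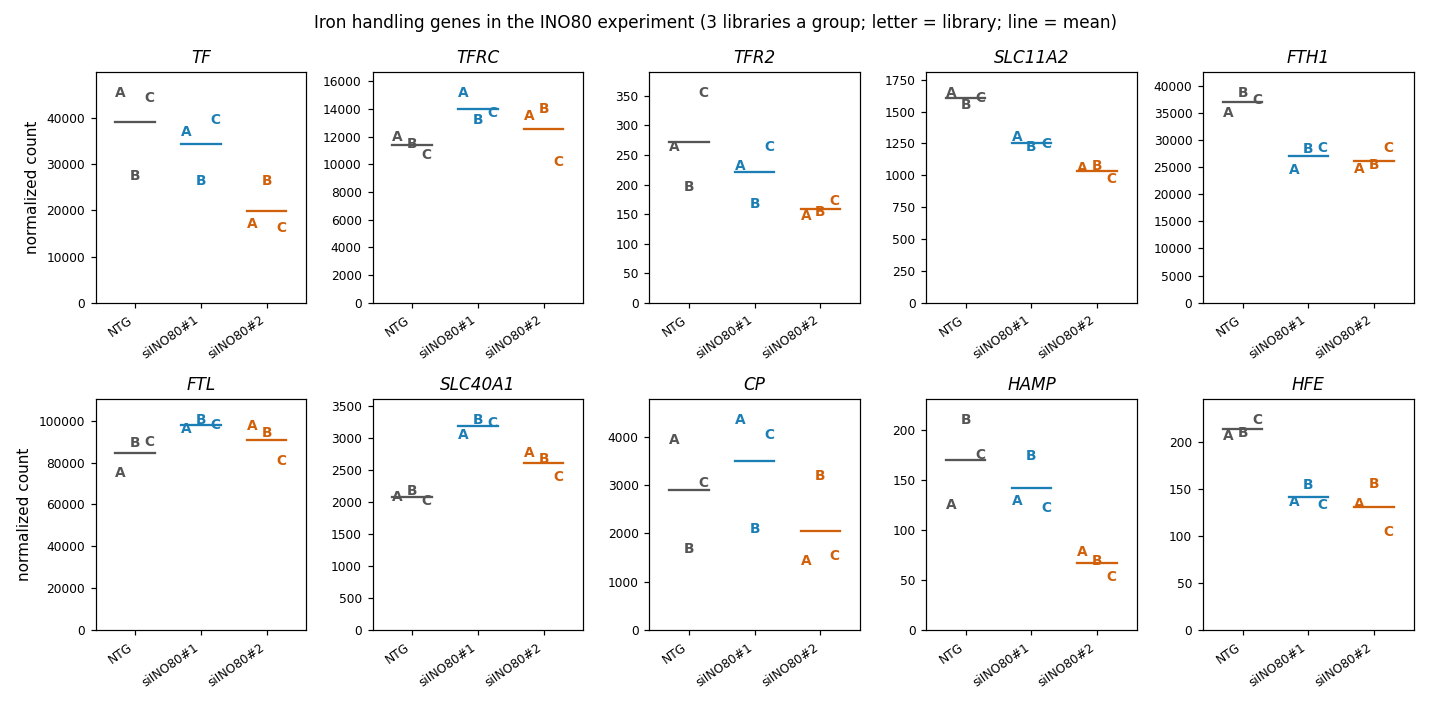
Normalized count (y axis, from 0) of each of the 10 genes in the 9 libraries of the INO80 experiment; a letter is a library and a line a group mean. FTH1, SLC11A2 and HFE are lower, and SLC40A1 higher, in every siINO80 library than in every NTG library, while in TF and CP the B libraries lie apart from A and C. How many of all genes were apart between siINO80 and NTG was not counted.

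**Figure D2:**
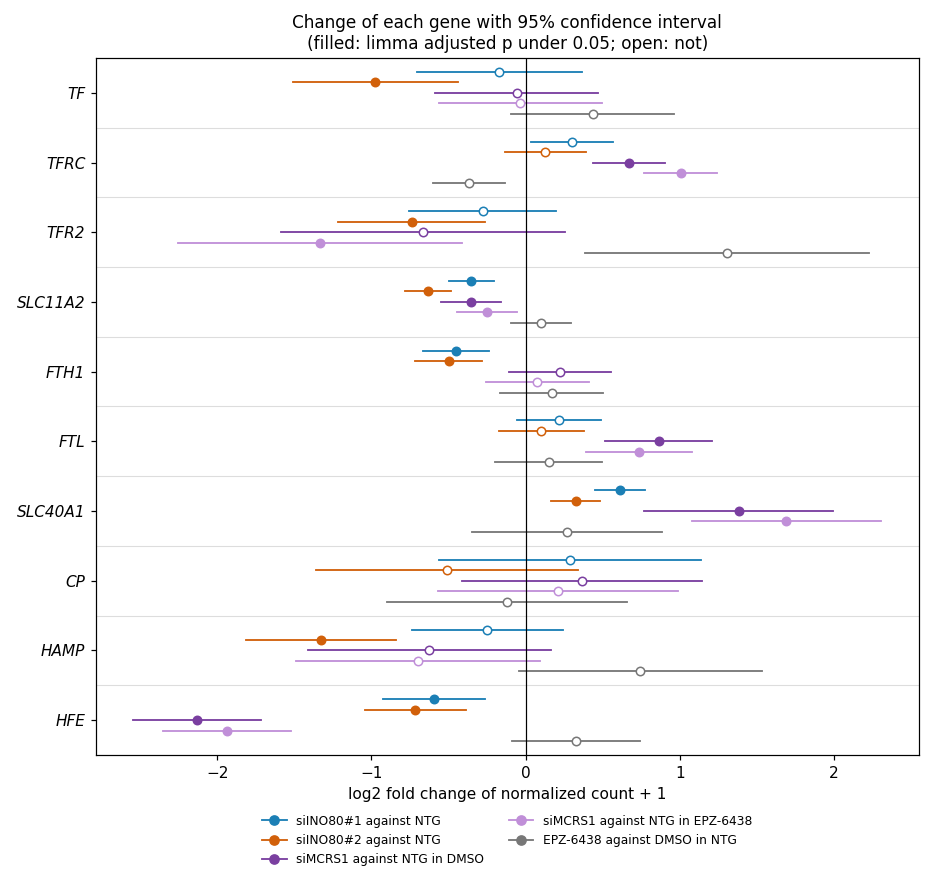
Log2 fold change with its 95% confidence interval (x axis) for each gene in 5 comparisons, filled where the adjusted p was under 0.05. HFE with siMCRS1 is farthest below 0 (−2.13 in DMSO) and SLC40A1 with siMCRS1 farthest above (1.69 in EPZ-6438).

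The ferritin chains did not move together. FTH1 encodes the heavy chain, which oxidizes iron as it enters the ferritin shell, and FTL the light chain, which helps to form the mineral core. FTH1 was 35004, 38664 and 37336 normalized counts in the A, B and C libraries of NTG, 24463, 28379 and 28418 with siINO80#1, and 24698, 25376 and 28520 with siINO80#2. Every siINO80 library was thus below every NTG library, with a log2 fold change of −0.45 (SE 0.10, adjusted p = 0.0038) for siINO80#1 and −0.50 (SE 0.10, adjusted p = 0.0014) for siINO80#2. FTL was 75218, 89337 and 89591 in NTG, 95860, 100285 and 98176 with siINO80#1, and 97611, 94127 and 80820 with siINO80#2. These changes did not pass the test (log2 fold change 0.22, interval −0.06 to 0.49, and 0.10, interval −0.17 to 0.38).

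With siMCRS1 FTL rose, and FTH1 did not pass the test. FTL was 118073 and 107540 in DMSO_NTG and 204962, 235297 and 178308 in DMSO_siMCRS1, a log2 fold change of 0.86 (SE 0.16, adjusted p = 0.0012). In EPZ-6438 it was 115846, 143851 and 116910 with NTG and 205362 and 210482 with siMCRS1 (log2 fold change 0.74, SE 0.16, adjusted p = 0.0025). The siMCRS1 and NTG libraries did not overlap under either treatment. FTH1 was 65392 and 55740 in DMSO_NTG and 68210, 84820 and 60613 in DMSO_siMCRS1, which overlap (log2 fold change 0.22, interval −0.11 to 0.56, adjusted p = 0.24), and in EPZ-6438 the change was 0.08 (interval −0.26 to 0.41). Where libraries were scaled to equal totals, the median of all genes shifted by −0.23 in both siMCRS1 comparisons and FTH1 changed sign, to −0.01 and −0.16, while FTL stayed higher, at 0.63 and 0.50.

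Either way the balance of the chains shifted to FTL. The ratio of FTH1 to FTL, which does not depend on the scaling of a library, was 0.417 to 0.465 in the NTG libraries of the INO80 experiment, 0.255 to 0.289 with siINO80#1 and 0.253 to 0.353 with siINO80#2. In the drug experiment it was 0.518 to 0.554 in DMSO_NTG, 0.333 to 0.36 in DMSO_siMCRS1, 0.505 to 0.593 in EPZ_NTG and 0.342 to 0.346 in EPZ_siMCRS1. Every knockdown library was below every NTG library of its experiment, and the geometric mean of the ratio fell to 0.629, 0.659, 0.642 and 0.633 of that of its control. An exact two-sided permutation test gave p = 0.1 with 3 libraries against 3 and p = 0.2 with 3 against 2, where the smaller tail is doubled. These are the smallest p-values this test can give for such groups, so it could not reach 0.05 for any ratio (adjusted p = 0.3 over the 21 ratio tests), and no other test of the ratios was run. The ratio compares 2 mRNAs within a library and says nothing of the amount of either protein. Ferritin has many processed pseudogenes, and 25 rows named as FTH1 pseudogenes together held 0.152% to 0.590% of the FTH1 value, and 16 rows named as FTL pseudogenes 0.014% to 0.060% of the FTL value. Reads of the functional genes could be split to them, and FTH1 also overlaps BEST1 on the opposite strand, which stayed under 39.7 normalized counts.

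**Figure D3:**
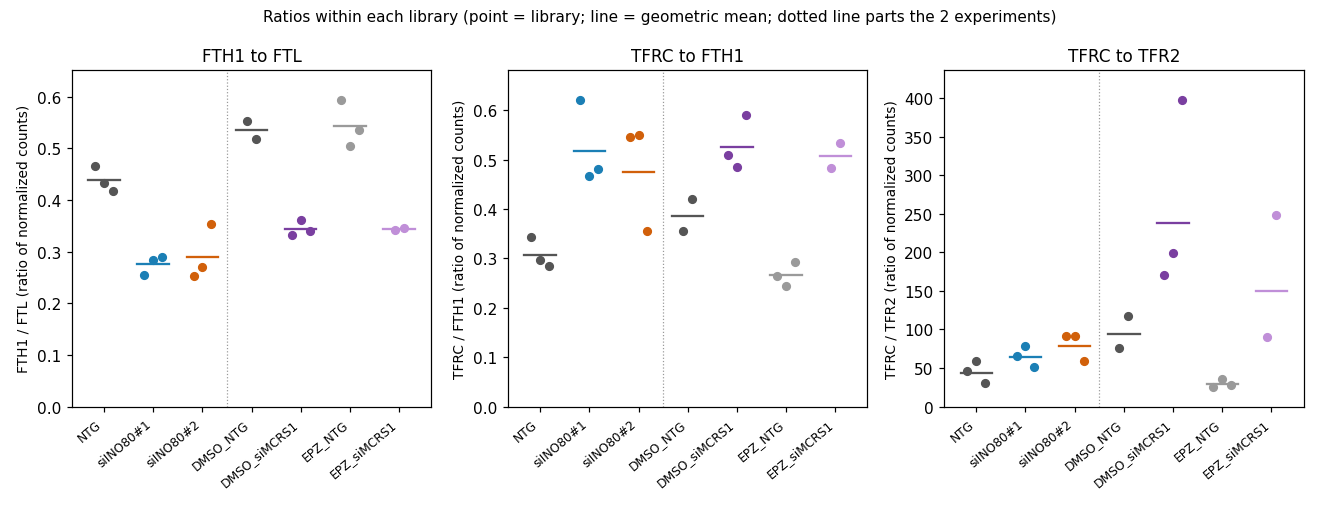
Ratio of normalized counts within each library (y axes, from 0) for FTH1 to FTL, TFRC to FTH1 and TFRC to TFR2, by group; points are libraries, lines geometric means. FTH1 to FTL lies at 0.417 or above in every NTG library and at 0.36 or below in every knockdown library.

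TF, the iron carrier of serum that hepatocytes secrete, fell with siINO80#2, and its libraries were widely spread. TF was 45378, 27358 and 44310 normalized counts in the A, B and C libraries of NTG, 36925, 26318 and 39573 with siINO80#1, and 17020, 26377 and 16086 with siINO80#2. The A and C libraries were far below those of NTG with siINO80#2, whereas the B libraries of all 3 groups lay within 26318 and 27358. Over all libraries the log2 fold change was −0.98 (SE 0.24, adjusted p = 0.0056) with siINO80#2 and −0.17 (interval −0.71 to 0.36) with siINO80#1, and without the B libraries it was −1.44 (adjusted p = 8.5e-05) and −0.23. The siINO80#2 libraries were lower than the siINO80#1 libraries (log2 fold change −0.80, SE 0.24, adjusted p = 0.037). That call was lost without siINO80#1 A (−0.74, adjusted p = 0.11), siINO80#1 C (−0.69, adjusted p = 0.12), siINO80#2 A (−0.71, adjusted p = 0.11) or siINO80#2 C (−0.67, adjusted p = 0.093), and also with no trend (adjusted p = 0.074) or with the replicate letter as a block (adjusted p = 0.052). TF lies on the same strand as SRPRB over part of its annotated length, which held 918 to 1869 normalized counts in the INO80 experiment.

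In the same comparison 5 of 10 hepatocyte markers fell and none rose with siINO80#2, beside 28.4% of all tested genes lower and 26.6% higher. HNF4A, a transcription factor of hepatocyte genes, fell from 5299 to 5822 in NTG to 2701 to 2799. HNF4A also fell with siINO80#1 and with siMCRS1 in DMSO, by at least 0.445 on the log2 scale. TF did not pass the test in either (log2 fold change −0.17 and −0.06). The summed level of the 10 markers of other cells was 37341 to 41288 in NTG and 49613 to 56559 with siINO80#2, nearly all of it LYZ. The part of these markers in the fall of TF was not tested. With siMCRS1 TF did not change detectably: it was 50585 and 32968 in DMSO_NTG, 49161, 43540 and 28162 in DMSO_siMCRS1, 57007, 55468 and 53296 in EPZ_NTG, and 62077 and 46776 in EPZ_siMCRS1. The intervals of the siMCRS1 effect, −0.59 to 0.47 in DMSO and −0.56 to 0.49 in EPZ-6438, allow a change of up to that size in either direction.

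The main transferrin receptor rose with siMCRS1. TFRC was 23198 and 23480 normalized counts in DMSO_NTG and 34763, 41102 and 35818 in DMSO_siMCRS1, a 1.59-fold rise (log2 fold change 0.67, SE 0.11, adjusted p = 0.00056). In EPZ-6438 it was 18223, 17699 and 18374 with NTG and 33992 and 38862 with siMCRS1, a 2.01-fold rise (log2 fold change 1.01, SE 0.11, adjusted p = 3.6e-05). All siMCRS1 libraries were above all NTG libraries under both treatments. The size of the rise depended on scaling. In DMSO and EPZ-6438 the log2 fold changes were 0.43 and 0.77 with libraries scaled to equal totals, where the median gene was at −0.23. They were 0.37 and 0.59 with quantile normalization, and all of them passed the threshold. With the INO80 siRNAs TFRC was 12015, 11491 and 10657 in NTG, 15174, 13230 and 13691 with siINO80#1, and 13506, 13986 and 10167 with siINO80#2. Every siINO80#1 library was above every NTG library, but the change of 0.30 (interval 0.04 to 0.56) had an adjusted p of 0.065. It passed with the replicate letter as a block (adjusted p = 0.032, beside 45.1% of all genes called), and TFRC was higher with siINO80#1 in each of the A, B and C pairs. It also passed with only the groups compared in the fit (adjusted p = 0.008) and without siINO80#2 C (adjusted p = 0.0055), a library that is not part of this comparison but of its error. With siINO80#2 the C library fell below NTG and the others did not, and without it the change was 0.27 (adjusted p = 0.014) in place of 0.13.

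TFR2, the receptor expressed mainly in hepatocytes and part of the hepcidin pathway, went the other way. It was 263, 196 and 355 in NTG, 231, 168 and 264 with siINO80#1, and 147, 154 and 173 with siINO80#2. All siINO80#2 libraries were below all NTG libraries (log2 fold change −0.74, SE 0.22, adjusted p = 0.014), a call lost without NTG C (−0.53, adjusted p = 0.059). With siMCRS1 or EPZ-6438 TFR2 was 306 and 200 in DMSO_NTG, 204, 206 and 90.2 in DMSO_siMCRS1, 709, 489 and 671 in EPZ_NTG, and 378 and 156 in EPZ_siMCRS1. It fell with siMCRS1 in EPZ-6438 (log2 fold change −1.34, SE 0.42, adjusted p = 0.019), but the call was lost without EPZ_siMCRS1 B (−0.70, adjusted p = 0.24), EPZ_NTG 1 (−1.23, adjusted p = 0.054) or EPZ_NTG 3 (−1.27, adjusted p = 0.05). In DMSO the change of −0.67 did not pass (adjusted p = 0.21).

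The ratio of TFRC to FTH1 mRNA, a receptor for iron entry against the heavy chain of its store, was 0.285 to 0.343 in NTG, 0.466 to 0.620 with siINO80#1 and 0.356 to 0.551 with siINO80#2. It was 0.355 to 0.421 in DMSO_NTG and 0.485 to 0.591 in DMSO_siMCRS1, and 0.244 to 0.293 in EPZ_NTG and 0.484 to 0.533 in EPZ_siMCRS1. Again all knockdown libraries were above their controls, and again the exact permutation test could give no less than p = 0.1 or p = 0.2. TFRC to TFR2 had geometric means of 43.1, 64.5 and 78.9 in NTG, siINO80#1 and siINO80#2, and of 94.2, 238, 29.4 and 150 in DMSO_NTG, DMSO_siMCRS1, EPZ_NTG and EPZ_siMCRS1.

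**Figure D4:**
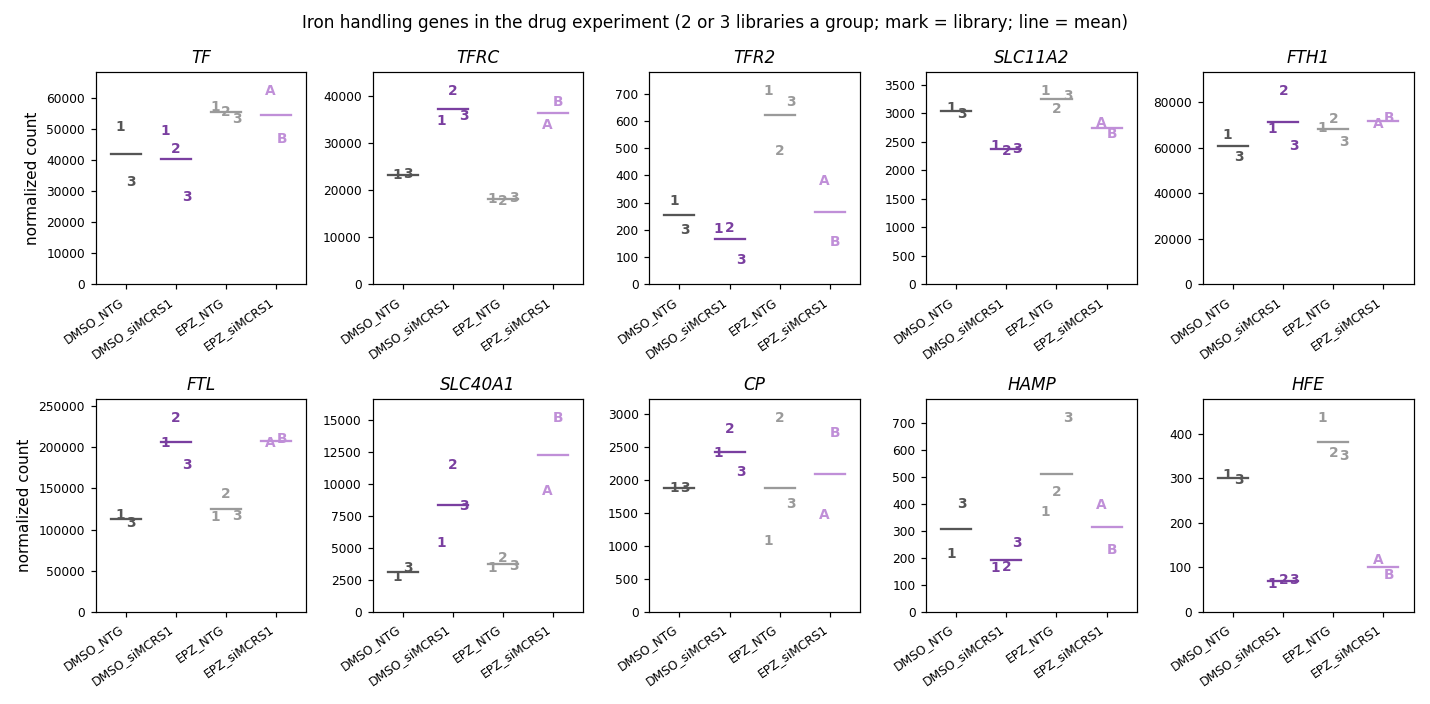
Normalized count (y axis, from 0) of each of the 10 genes in the 10 libraries of the drug experiment; the marks 1, 2, 3, A and B are the libraries' names in the deposited table and the lines group means. TFRC, FTL and SLC40A1 are higher and HFE and SLC11A2 lower in every siMCRS1 library than in every NTG library. How many of all genes were apart in this way was not counted.

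The importer fell and the exporter rose with every siRNA. SLC11A2, the endosomal iron transporter, was 1646, 1554 and 1609 normalized counts in NTG, 1301, 1224 and 1243 with siINO80#1, and 1057, 1074 and 970 with siINO80#2. The 3 groups did not overlap, with log2 fold changes of −0.35 (SE 0.07, adjusted p = 0.0017) and −0.63 (SE 0.07, adjusted p = 2e-05) against NTG. The drug experiment had SLC11A2 at 3093 and 2993 in DMSO_NTG, 2425, 2338 and 2383 in DMSO_siMCRS1, 3392, 3078 and 3314 in EPZ_NTG, and 2837 and 2648 in EPZ_siMCRS1. It fell by 0.35 on the log2 scale in DMSO (SE 0.09, adjusted p = 0.0069) and by 0.25 in EPZ-6438 (SE 0.09, adjusted p = 0.032). The first call was lost without DMSO_NTG 1 (−0.33, adjusted p = 0.056). The second was lost without EPZ_NTG 1 (−0.22, adjusted p = 0.067), EPZ_NTG 3 (−0.24, adjusted p = 0.075), EPZ_siMCRS1 A (−0.30, adjusted p = 0.061) or EPZ_siMCRS1 B (−0.20, adjusted p = 0.22), with no filter on low values (adjusted p = 0.053) and with only the groups compared in the fit (adjusted p = 0.099). With libraries scaled to equal totals the changes were −0.59 and −0.49, with the median gene at −0.23.

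SLC40A1 encodes ferroportin, the exporter that hepcidin removes from the membrane. It was 2068, 2164 and 2010 in NTG, 3042, 3275 and 3227 with siINO80#1, and 2769, 2674 and 2386 with siINO80#2. The 3 groups again did not overlap, and the change was 1.53-fold with siINO80#1 (log2 fold change 0.61, SE 0.07, adjusted p = 8.9e-05) and 1.25-fold with siINO80#2 (log2 fold change 0.32, SE 0.07, adjusted p = 0.0031). The rise with siINO80#2 did not pass where libraries were scaled to equal totals (0.22, adjusted p = 0.096, with the median of all genes at −0.11). SLC40A1 rose most with siMCRS1: it was 2733 and 3445 in DMSO_NTG and 5384, 11451 and 8295 in DMSO_siMCRS1 (log2 fold change 1.38, SE 0.28, adjusted p = 0.0022). In EPZ-6438 it was 3411, 4172 and 3554 with NTG and 9434 and 15117 with siMCRS1 (log2 fold change 1.69, SE 0.28, adjusted p = 0.00051). The siMCRS1 libraries of each treatment were all above its NTG libraries but spread widely among themselves.

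CP passed the test in no comparison in the fit of all groups and libraries. It was 3934, 1683 and 3055 normalized counts in NTG, 4347, 2091 and 4044 with siINO80#1, and 1429, 3195 and 1534 with siINO80#2, so that B was the lowest library in NTG and siINO80#1 and the highest with siINO80#2. Without the B libraries, an alternative chosen after the data were seen, CP was lower with siINO80#2 than in NTG (log2 fold change −1.23, adjusted p = 0.00034, against −0.51, adjusted p = 0.28, with them) and than with siINO80#1 (−1.50, adjusted p = 0.002, against −0.80). Leaving out siINO80#2 B alone also put the latter past the threshold (−1.17, adjusted p = 0.038). CP was 1886 and 1876 in DMSO_NTG and 2407, 2771 and 2126 in DMSO_siMCRS1, which did not overlap. This change of 0.36 passed with only these groups in the fit (adjusted p = 0.045) and not with all groups (interval −0.41 to 1.14, adjusted p = 0.42). EPZ_NTG alone ran from 1073 to 2938, the range of the whole drug experiment. CP lies opposite to part of HPS3, and whether counting used the strand is not stated.

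HFE had the largest fall of the 10. HFE encodes a protein related to MHC class I that binds the transferrin receptor, and its loss causes hereditary hemochromatosis. It was 306 and 296 normalized counts in DMSO_NTG and 62.3, 70.5 and 71.6 in DMSO_siMCRS1, 0.228 of the control (log2 fold change −2.13, SE 0.19, adjusted p = 2.4e-05). In EPZ-6438 it was 434, 357 and 350 with NTG and 116 and 82.5 with siMCRS1 (log2 fold change −1.94, SE 0.19, adjusted p = 2.1e-05). With the INO80 siRNAs it was 206, 209 and 223 in NTG, 136, 154 and 133 with siINO80#1, and 133, 155 and 104 with siINO80#2. No knockdown library reached its control, with log2 fold changes of −0.59 (SE 0.15, adjusted p = 0.0084) and −0.71 (SE 0.15, adjusted p = 0.002). HFE kept its calls with siINO80 and siMCRS1 under every alternative tried. The annotated span of the histone gene H2BC4, on the opposite strand, shares 11063 bases with that of HFE. No level was matched for H2BC4.

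HAMP fell with siINO80#2. It was 125, 209 and 175 in NTG, 129, 174 and 122 with siINO80#1, and 77.4, 68.9 and 52.9 with siINO80#2, so that only the siINO80#2 libraries lay below the rest. The fall was to 0.399 of NTG (log2 fold change −1.33, SE 0.22, adjusted p = 0.00046), and siINO80#2 was also below siINO80#1 (−1.08, SE 0.22, adjusted p = 0.0067). With siINO80#1 the change was −0.25 (interval −0.74 to 0.24). HAMP was 213 and 401 in DMSO_NTG, 161, 165 and 254 in DMSO_siMCRS1, 368, 445 and 717 in EPZ_NTG, and 395 and 230 in EPZ_siMCRS1. The groups overlap for siMCRS1, whose effects of −0.62 (interval −1.41 to 0.16) and −0.70 (interval −1.49 to 0.09) did not pass. With the column number of the table as a block, an alternative chosen after the data were seen that leaves out EPZ_siMCRS1, HAMP was lower with siMCRS1 in DMSO (−0.54, adjusted p = 0.0079), beside 55.9% of all genes called.

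Hemojuvelin, the BMP co-receptor for HAMP and the cause of juvenile hemochromatosis when lost, is listed under its older symbol HFE2 and was too low for the main test. HFE2 was 1.12, 4.11 and 6.72 in NTG, 0 in all 3 libraries with siINO80#1, and 1.12, 0 and 0 with siINO80#2, against a worth of 2.30 to 3.58 for 3 reads. With DMSO or EPZ-6438 it was 8.62 and 8.59 in DMSO_NTG, 0 in all 3 DMSO_siMCRS1 libraries, 23.7, 24.9 and 25.2 in EPZ_NTG, and 0.80 and 0 in EPZ_siMCRS1. The siMCRS1 libraries were at or below the worth of 3 reads, and the EPZ_NTG libraries were all above the DMSO_NTG libraries. In a fit with no filter on low values HFE2 was lower with siINO80#1 (adjusted p = 0.0073), with siINO80#2 (adjusted p = 0.015), and with siMCRS1 in DMSO (adjusted p = 0.00033) and in EPZ-6438 (adjusted p = 4.8e-05). EPZ-6438 against DMSO in NTG cells did not pass there (adjusted p = 0.21).

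EPZ-6438 moved none of the 10 genes past the threshold in the fit of all groups, in limma or in edgeR on recovered reads, but up to 3 of them in other limma fits. In NTG cells 0.384% of all genes were called (0.321% higher, 0.0629% lower), and in siMCRS1 cells 0.0908% (0.0838% higher, 0.00699% lower). At an unadjusted p under 0.05 there were 2443 and 1305 of 14312 genes. The largest member changes in NTG cells were TFR2 (log2 fold change 1.31, interval 0.39 to 2.23, adjusted p = 0.16), HAMP (0.74, interval −0.04 to 1.53, adjusted p = 0.32), TF (0.44, interval −0.09 to 0.96, adjusted p = 0.38) and TFRC (−0.37, interval −0.60 to −0.13, adjusted p = 0.13). TFR2, TF, TFRC and HFE did not overlap between EPZ_NTG and DMSO_NTG. TFR2 was at 489 to 709 against 200 to 306, TF at 53296 to 57007 against 32968 and 50585, and HFE at 350 to 434 against 296 and 306. How many of all genes were apart between these groups was not counted, so nothing is read from the separation. With only these groups in the fit TFR2 passed (adjusted p = 0.046), beside 0.889% of all genes. With the column number as a block, in the same added alternative as for HAMP above, TFR2 (1.29, adjusted p = 0.047) and HAMP (0.83, adjusted p = 0.02) were higher and TFRC was lower (−0.40, adjusted p = 0.036) in NTG cells with EPZ-6438, beside 8.1% of all genes called. Without the block the same libraries gave none. The effect of siMCRS1 did not differ detectably between EPZ-6438 and DMSO: 0.0% of genes passed, 0.0% higher and 0.0% lower, with 336 genes at an unadjusted p under 0.05, and among members the difference was largest for TFR2 (−0.67, interval −1.97 to 0.63) and TFRC (0.34, interval 0.00 to 0.67).

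Other iron genes were grouped in 5 lists, and for each the counts are given for siINO80#1, siINO80#2 and siMCRS1 in DMSO. Of all tested genes 20.8%, 28.4% and 24.6% fell and 20.7%, 26.6% and 23.1% rose in these comparisons. With all 3 siRNAs 12.4% fell and 12.2% rose. Of 27 genes of mitochondrial iron and iron-sulfur cluster assembly, 17, 18 and 14 fell and 2, 1 and 1 rose, with medians of −0.40, −0.48 and −0.44 beside 0.00, 0.00 and 0.00 over all genes. Of these, 11 fell with all 3 siRNAs, led by NFS1, the cysteine desulfurase that supplies the sulfur, at 1571 to 1736 normalized counts in NTG, 773 to 889 with siINO80#1 and 814 to 848 with siINO80#2. NFS1 was also 2567 to 2997 in DMSO_NTG and 1071 to 1322 in DMSO_siMCRS1. The log2 fold changes of NFS1 were −0.97, −0.97 and −1.26. FDXR, which passes electrons to the ferredoxins, fell by 0.87, 1.36 and 1.95 on the log2 scale. NUBP2 (a cytosolic scaffold), HSCB (a co-chaperone) and ISCU (the assembly scaffold) also fell with all of them, by at least 0.54. Outside the naming rule, ISCA2, GLRX5, NARFL, NFU1 and CIAO1 fell with all of them too.

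Of 19 tested genes of heme synthesis, transport and breakdown, 10, 13 and 8 fell and 2, 2 and 2 rose, with medians of −0.30, −0.58 and −0.29. ALAD, the second enzyme of heme synthesis, fell with all 3, from 749 to 857 in NTG to 354 to 424 and 337 to 390 with the INO80 siRNAs, and from 960 to 1122 in DMSO_NTG to 279 to 351 in DMSO_siMCRS1. BLVRB (biliverdin reductase), SLC46A1 (a folate and heme carrier), SLC48A1 (a heme transporter) and FLVCR1 (described as a heme exporter) fell with all of them as well, by at least 0.30, and HMOX2, outside the naming rule, rose.

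Of the genes that control hepcidin, 21 were tested in the INO80 and 22 in the drug experiment, and 10, 9 and 13 rose while 1, 4 and 2 fell, with medians of 0.32, 0.18 and 0.55. The 6 that led among the 8 higher with all 3 siRNAs were IL6ST (the signaling subunit of the IL-6 receptor), SOCS3 (its feedback inhibitor), IL6R, GDF15, BMPR2 and STAT3, and SMAD5 and ACVR2A completed them. IL6ST was 2969 to 3252 in NTG, 11873 to 13286 with siINO80#1 and 9244 to 9440 with siINO80#2, and 5224 to 6438 in DMSO_NTG and 29047 to 38836 in DMSO_siMCRS1. Its log2 fold changes were 2.02, 1.59 and 2.60. IL6ST, SOCS3, IL6R and STAT3, 4 of these 8, belong to the IL-6 receptor pathway, SOCS3 as its feedback inhibitor. HAMP was not called higher with any siRNA. These mRNA levels do not measure the activity of the pathway, and its part in the level of HAMP was not tested.

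Of 12 tested genes of iron sensing and ferritin turnover, 2, 2 and 5 rose and 4, 5 and 0 fell, with medians of −0.11, −0.16 and 0.16. PCBP4, a relative of the iron chaperones PCBP1 and PCBP2, and EPAS1, the hypoxia factor HIF-2α, rose with all 3. Of the other genes of uptake, reduction and export, 12 were tested in the INO80 and 11 in the drug experiment, and 3, 4 and 2 rose and 1, 2 and 2 fell, with medians of 0.29, 0.16 and −0.23. In all, 6, 7 and 5 genes of iron sensing and 4, 6 and 4 of other uptake were called, beside 41.6%, 55.0% and 47.7% of all genes. These shares are near each other, and nothing is read from the counts of either list. STEAP3, the endosomal reductase that prepares iron for SLC11A2, rose with all 3, from 158 to 181 in NTG to 588 to 645 and 662 to 705, and from 293 to 304 in DMSO_NTG to 1004 to 1396 in DMSO_siMCRS1. STEAP3 thus rose in libraries in which SLC11A2 fell.

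**Figure D5:**
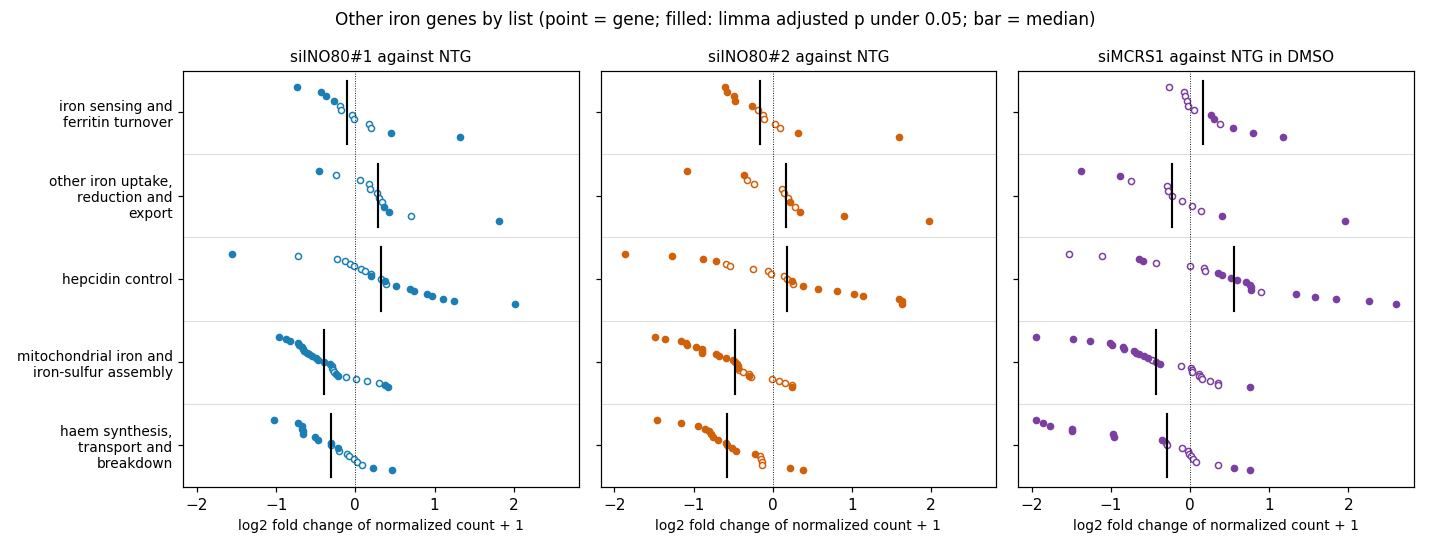
Log2 fold change (x axis) of each tested gene of 5 other iron gene lists with siINO80#1, siINO80#2 and siMCRS1 in DMSO; filled points passed an adjusted p of 0.05 and bars are list medians. The medians of the iron-sulfur and heme lists lie below 0 in all 3 panels (−0.29 to −0.58) and that of hepcidin control above 0 (0.18 to 0.55).

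Over the 9 libraries of the INO80 experiment, the genes whose centred log2 profile was closest to that of TF were ANG, FMO5 and PROZ, with a root mean square difference of 0.119 for ANG. For TFRC they were MAPK14 (0.0467), ADIPOR2 and RAE1, and for HAMP CUTC (0.187), S100P and MARCH3. In the drug experiment 54, 3264 and 7885 of 11582 genes were closer to TF than ANG, FMO5 and PROZ were. For TFRC, 986, 138 and 537 were closer than MAPK14, ADIPOR2 and RAE1, and for HAMP 6651, 7471 and 1967 were closer than CUTC, S100P and MARCH3. The likeness to TF in the INO80 experiment was thus met again for ANG far more than for FMO5 and PROZ.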

How the data were processed

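For each experiment the authors deposited a signal table in which a gene's count in a library is divided by that library's size factor, from HepG2 mRNA-seq made with a stranded kit. The submitters' processing notes name kallisto, DESeq2 and GRCh38, with no versions. Groups came from the sample labels, and columns of the drug table gave groups but mostly not letters. Dividing by the smallest step of a library gave whole reads, which were used for depth and for an edgeR 4.0.16 alternative. The main test was limma 3.58.1 in R 4.3.3 (lmFit, eBayes with trend, all groups of a table in 1 fit) on log2(value + 1), for genes averaging 10 or more, and adjusted p-values (Benjamini-Hochberg, over all genes tested) under 0.05 were called. It was tested on simulated data. Ratios were compared by exact permutation. The replicate letter pairs NTG with siINO80#1 by the correlation of deviations from group means, which was over 0.1 in all 3 pairs, so the blocked value stands beside that comparison where it changes a call. Replicate pairs differed by more than sampling noise (chi-square per degree of freedom 9.45 to 121). A floor of 3 reads covers counting error only. In bulk RNA, fewer cells of a type and less RNA per cell cannot be told apart.

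The members and lists were chosen with earlier results of these data known. All members and targets are named, and from each other list the genes past the threshold in 1 direction with siINO80#1, siINO80#2 and siMCRS1 in DMSO, up to 6 by the smallest of the 3 changes. Some genes this rule covers are not reported here. ChIP-seq files of the series were not used here.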

Additional observations from a re-analysis of the deposited data

Results flagged for a closer look

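The INO80 siRNAs differed from each other in 4 of the 10 genes by the test of the difference itself, each lower with siINO80#2 than with siINO80#1. The log2 differences were −0.80 for TF, −0.28 for SLC11A2 (adjusted p = 0.013), −0.29 for SLC40A1 (adjusted p = 0.018) and −1.08 for HAMP. Of all tested genes 22.1% differed. The log2 difference of INO80 itself was −0.40 (adjusted p = 0.0058), and −0.36 (adjusted p = 0.067) without the B libraries. The call of TF was lost without any of the 4 A and C libraries of the siINO80 groups (adjusted p = 0.093 to 0.12), with no trend (adjusted p = 0.074) and in the fit blocked on the replicate letter (adjusted p = 0.052). That of SLC11A2 was lost without siINO80#1 A (−0.26, adjusted p = 0.056) and without the B libraries (−0.33, adjusted p = 0.06). That of SLC40A1 was lost without siINO80#1 B (−0.27, adjusted p = 0.067), siINO80#1 C (−0.28, adjusted p = 0.063) or the B libraries (−0.29, adjusted p = 0.11), and with libraries scaled to equal totals (−0.32, adjusted p = 0.053). HAMP passed in every alternative. No group held the 4 libraries that a search for outlying libraries needs.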

How the results depend on the processing

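Another normalization, filter, tool, block or the loss of the B libraries turned the direction in 20 cases in all, none of them past the threshold. With libraries scaled to equal totals these were FTL with siINO80#2 (−0.0081), FTH1 with siMCRS1 (−0.011 in DMSO, −0.16 in EPZ-6438), CP with siMCRS1 in EPZ-6438 (−0.030), INO80 with EPZ-6438 in NTG cells (0.025) and the interaction for MCRS1 (−0.0020). With quantile normalization they were FTL with siINO80#2 (−0.081), FTH1 with siMCRS1 (−0.14 and −0.20), FTL with EPZ-6438 in NTG cells (−0.12), FTH1 with EPZ-6438 in siMCRS1 cells (−0.014), INO80 with EPZ-6438 (0.064) and the interactions for FTL (0.19) and MCRS1 (−0.096). With edgeR on recovered reads they were CP (0.021) and INO80 (0.019) with EPZ-6438 in NTG cells and the interaction for MCRS1 (−0.019), and without the B libraries FTH1 between the INO80 siRNAs (0.0095). With the column number as a block they were INO80 (0.014) and MCRS1 (0.035) with EPZ-6438 in NTG cells. The cause was not tested.

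The count of members past the threshold went from 0 to 1 for EPZ-6438 in NTG cells in a fit of EPZ_NTG and DMSO_NTG alone and to 3 with the column number as a block. Genes past the threshold in 1 direction with all 3 siRNAs went from 2 to 1 in iron sensing with no trend or without the B libraries, from 1 to 2 in other uptake with equal totals, quantile normalization, edgeR or the column number as a block, from 8 to 5 in hepcidin control with equal totals, and from 7 to 4 in heme without the B libraries. Leaving out 1 library gave 2 to 5 members between the INO80 siRNAs (2 without siINO80#1 A or C), 1 to 2 genes in iron sensing (1 without NTG A, NTG B or siINO80#2 C), 1 to 2 in other uptake (2 without DMSO_siMCRS1 2 or EPZ_NTG 1), 5 to 8 in hepcidin control (5 without DMSO_NTG 1), 6 to 11 in iron-sulfur assembly (6 without DMSO_NTG 1) and 4 to 8 in heme (4 without siINO80#1 C).

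Leaving out 1 library also turned directions that had not passed. The ranges were −0.41 to 0.0074 for TF and −0.060 to 0.62 for CP with siINO80#1, −0.25 to 0.018 for MCRS1 with siINO80#2, and −0.25 to 0.035 for HFE and −0.18 to 0.086 for MCRS1 between the INO80 siRNAs. With siMCRS1 they were −0.37 to 0.25 for TF in DMSO, and −0.24 to 0.17 for TF and −0.23 to 0.65 for CP in EPZ-6438. With EPZ-6438 in NTG cells they were −0.50 to 0.22 for CP, −0.070 to 0.067 for INO80 and −0.22 to 0.080 for MCRS1, and in siMCRS1 cells −0.13 to 0.066 for TFRC, −0.088 to 0.15 for FTH1, −0.079 to 0.12 for FTL, −0.72 to 0.17 for CP and −0.30 to 0.17 for MCRS1. For the interaction they were −0.29 to 0.33 for TF, −0.031 to 0.65 for SLC40A1, −0.60 to 0.29 for CP, −0.53 to 0.38 for HAMP, −0.053 to 0.43 for HFE and −0.23 to 0.24 for MCRS1. For log2 ratios they were −0.077 to 0.16 (FTH1 to FTL) and −0.23 to 0.083 (TFRC to FTH1) between the INO80 siRNAs, −0.042 to 0.074 (FTH1 to FTL) with EPZ-6438 in NTG cells, and −0.024 to 0.033 (FTH1 to FTL), −0.12 to 0.031 (TFRC to FTH1) and −1.40 to 0.062 (TFRC to TFR2) with it in siMCRS1 cells.

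With the replicate letter as a block, 5, 7 and 4 members passed with siINO80#1, siINO80#2 and between them, against 4, 7 and 4 without it. The block brought in TFRC with siINO80#1 (0.30, adjusted p = 0.032) and TFR2 between the siRNAs (−0.46, adjusted p = 0.044) and lost TF between them (−0.80, adjusted p = 0.052). Libraries of the same letter deviated together between NTG and siINO80#1 (correlation 0.14 to 0.26 in 3 pairs, −0.22 to −0.04 in 6 pairs of other letters), but not in every pair between NTG and siINO80#2 (−0.077 to 0.095) or between the siRNAs (0.0036 to 0.13). Deviations from a group mean cancel within the group, so the values of other letters offset those of the same letter and are no separate contrast. The columns of the drug table carry numbers in 3 groups where the labels carry letters. The numbers were therefore not taken as pairs, and a fit with them as a replicate block, without EPZ_siMCRS1, was added after the data were seen. It gave 6 members for siMCRS1 in DMSO and 3 for EPZ-6438 in NTG cells, against 5 and 0 in the same libraries without it, with same-number correlations of 0.29 to 0.30 and 0.22 to 0.30 in 2 pairs each. The 2 libraries of DMSO_NTG deviate as mirror images, so the pairs of each comparison are not independent. No such fit was run for comparisons with EPZ_siMCRS1.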
